A study of Mus musculus with 54 samples.

Results

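The TNF superfamily ligands are a set of 8 genes, Tnf, Lta, Ltb, Tnfsf9, Tnfsf10, Tnfsf13b, Tnfsf14 and Tnfsf15, chosen by symbol from the 52636 gene identifiers of the deposited count tables. All 8 symbols matched 1 Ensembl identifier each in the GRCm38 annotation, and all 8 passed a filter on low counts that left 14970 genes for testing. RNA sequencing was done on bone marrow-derived macrophages (BMDMs), cells grown from mouse marrow with the growth factor M-CSF. The groups were wild-type (WT) or N4bp1 knockout (KO) cells, left untreated or given Pam3 (Pam3CSK4, a lipopeptide agonist of the receptor pair TLR2 and TLR1) or R837 (imiquimod, an agonist of TLR7) for 2, 4, 6 or 8 h. These 18 groups held 3 libraries each. The labels give the WT animals as C57BL/6N; the strain background of the knockout, the form of its N4bp1 allele and the age of the animals were not given in the sources used here. M-CSF was common to all groups.

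Ligands of this family are mostly type II membrane proteins that act as trimers, at the cell surface or after release by proteases, and signal through receptors of the TNF receptor superfamily. Macrophages are a main source of TNF, whose gene is induced by NF-kB and MAP kinase signalling downstream of Toll-like receptors and whose short-lived mRNA is controlled through AU-rich elements in its 3′ untranslated region. N4BP1, a substrate of caspase-8, binds RNA and ubiquitin and is known as a brake on NF-kB.

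Library totals ran from 20033154 to 45892308 counts. Levels below are CPM, counts scaled to library size with TMM factors, per library or as mean ± SD over n = 3 libraries. Differences are log2 ratios ± SE from edgeR's quasi-likelihood test, and a gene is called where the Benjamini-Hochberg adjusted p over all 14970 genes is under 0.05. The targeted gene, N4bp1, separated the genotypes without overlap in all 9 conditions and was the lower in KO libraries, with log2 differences from -1.70 to -0.78. In each WT condition 1 library held 160.2 to 204 CPM of Y-linked transcripts, 1 held 55.6 to 69.3 CPM and 1 held at most 0.159 CPM, while all 27 KO libraries held at most 0.199 CPM. The middle WT libraries also carried Xist, so n counts libraries and not mice, although the labels speak of 3 mice. Each KO against WT call of a ligand is therefore also given without the 18 WT libraries that held Y-linked transcripts, which leaves 1 WT library per condition, assumed to vary like the other groups. The 3 levels recurred in every WT condition, so WT libraries of different conditions may share a source. A fit with these levels as a block among WT libraries kept all ligand calls that involve WT cells. The 7 core macrophage markers summed to 16429 to 27121 CPM in WT and 14418 to 22687 CPM in KO libraries. KO sums of these markers were lower without overlap at 6 and 8 h of Pam3 and at 2, 4, 6 and 8 h of R837. In untreated cells and at 2 and 4 h of Pam3 the genotypes overlapped in them. Of the 10 T and NK cell markers 5 passed the filter. Together the 10 summed to 53.9 to 349.9 CPM in WT and 29.1 to 302 CPM in KO libraries. These sums were lower in KO libraries without overlap in every condition but Pam3 2 h and Pam3 6 h. The 8 B and plasma cell markers summed to 4.53 to 32.8 and 39.3 to 122 CPM, with no overlap between genotypes. None of these markers was at 0 in all libraries. Of the T and NK cell markers, Il7r reached 315 CPM, Cd4 51.3 CPM and Cd8a 17.1 CPM. Cd3d, Cd3e, Cd3g, Cd2, Nkg7, Klrb1c and Ncr1 each reached at most 0.792 CPM. The part of such cells, or of those described next, in the results below was not tested. The 6 stromal and endothelial markers summed to 20.2 to 40.3 CPM in WT and 7.62 to 23.1 CPM in KO libraries. Within each of the 9 conditions the KO sums lay below the WT sums without overlap. The 8 neutrophil markers summed to 181 to 407 CPM in WT and 137 to 372 CPM in KO libraries. Their KO sums were lower without overlap at 2, 6 and 8 h of Pam3 and at 2, 4 and 6 h of R837. The genotypes overlapped in these sums in untreated cells, at Pam3 4 h and at R837 8 h. Of the neutrophil markers, Ly6g reached 0.289 CPM and Csf3r 218 CPM. The 6 dendritic cell markers summed to 4.64 to 37.9 CPM in WT and 5.26 to 16.8 CPM in KO libraries. KO sums were lower without overlap in untreated cells, at 2 and 4 h of Pam3 and at 2, 4 and 6 h of R837. At 6 and 8 h of Pam3 and at R837 8 h they overlapped with WT sums. A single library stood apart in detection, the third of KO Pam3 8 h, where 12263 genes were counted; elsewhere it was 16097 to 18039.

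Of the 8 genes, 5 lie on chromosome 17 (GRCm38). Ltb (35194439 to 35196320, plus strand), Tnf (35199381 to 35202007, minus strand) and Lta (35203165 to 35205351, minus strand) are neighbours, with 3060 bases between Ltb and Tnf and 1157 bases between Tnf and Lta. Tnfsf9 (57105325 to 57107757, plus strand) and Tnfsf14 (57189492 to 57194177, minus strand) stand on either side of Cd70, another ligand of the family. Tnfsf10 is on chromosome 3 (27317028 to 27342427, plus strand), Tnfsf13b on chromosome 8 (10006467 to 10039072, plus strand) and Tnfsf15 on chromosome 4 (63727084 to 63745113, minus strand). The strand setting of the counts was not given in the sources used here. Counts of Tnfsf9 and of Tnfsf13b may thus include reads of the antisense transcripts Gm11110 and Gm44789 that overlap them. Lta and Ltb each overlap a microRNA gene.

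Levels of different genes were compared as the deposited RPKM, which divides by exon length. In untreated WT cells Tnf stood at 5.64 ± 0.751 RPKM and made up 57.8% of the summed RPKM of the 8 ligands, and Tnfsf9 stood next at 1.59 ± 0.279 RPKM. After 2 h of Pam3 WT cells held 529 ± 93.1 RPKM of Tnfsf9 and 495 ± 107 RPKM of Tnf, values whose ranges over libraries overlapped. From 4 h on Tnf was 89.3 to 97% of the sum in all groups of either genotype and ligand. Lta, Ltb, Tnfsf13b and Tnfsf15 stayed below 10 RPKM in every group mean. Outside Tnf and Tnfsf9, the highest group mean was 31.3 ± 2.86 RPKM, for Tnfsf10 in WT cells after 4 h of R837.

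**Figure D1:**
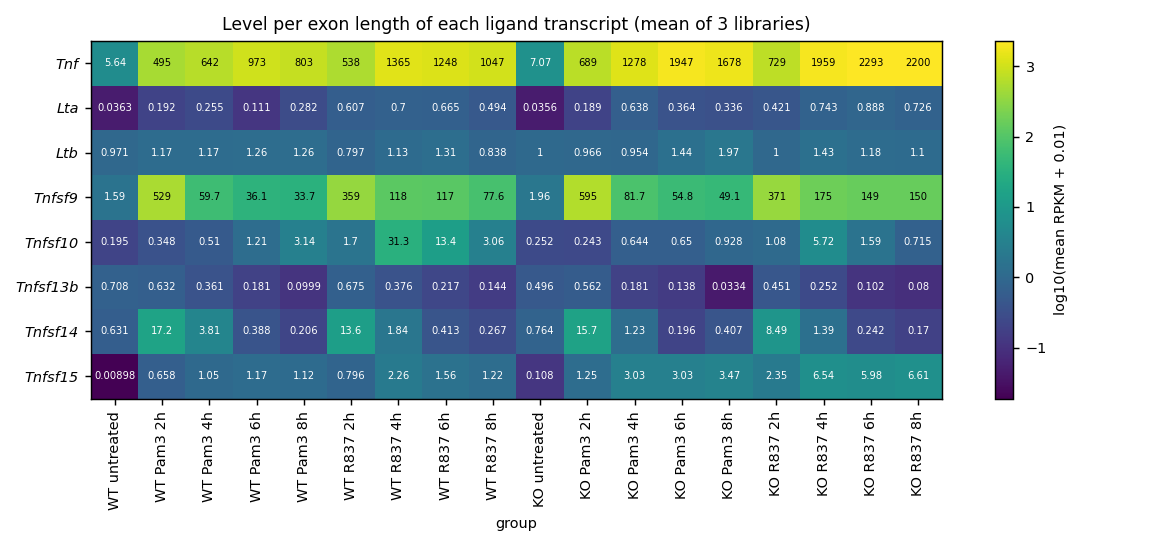
Deposited RPKM of the 8 ligand genes (rows) in the 18 groups (columns), as the mean of 3 libraries printed in each cell and coloured on a log10 scale. Tnf has the highest mean in every group but WT Pam3 2h, where Tnfsf9 is higher at 529 RPKM.

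In WT cells most of the ligand genes rose with either agonist. Against untreated cells, 5, 6, 5 and 7 of the 8 were called after 2, 4, 6 and 8 h of Pam3, where 41.0%, 49.0%, 53.5% and 52.2% of all genes were called. Against untreated cells, 6, 6, 7 and 6 of the 8 were called after 2, 4, 6 and 8 h of R837, where 42.0%, 53.8%, 59.2% and 57.3% of all genes were called. Tnf, Tnfsf9 and Tnfsf15 rose at all 8 ligand times. Tnfsf10 rose at all but Pam3 2 h, and Lta at all but Pam3 6 h. Tnfsf14 rose at 2 and 4 h of either agonist, and fell below untreated cells at Pam3 8 h. Tnfsf13b fell at 6 and 8 h of either agonist. Ltb rose at R837 6 h and was not called at the other 7 times. At R837 4 h the median log2 change of the 8 was 5.65, beside -0.04 over all genes, and at Pam3 4 h it was 2.88, beside -0.01. Without the 18 libraries with Y-linked transcripts, which leaves 1 WT library in each group, all 48 of these calls kept their direction. Calls of Lta, Tnfsf13b, Tnfsf10, Tnfsf14 and Ltb ended in that fit, in which fewer of all genes were called too. These 8 comparisons share the 3 untreated WT libraries. In bulk libraries, fewer cells with a transcript and less of it per cell cannot be told apart.

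**Figure D2:**
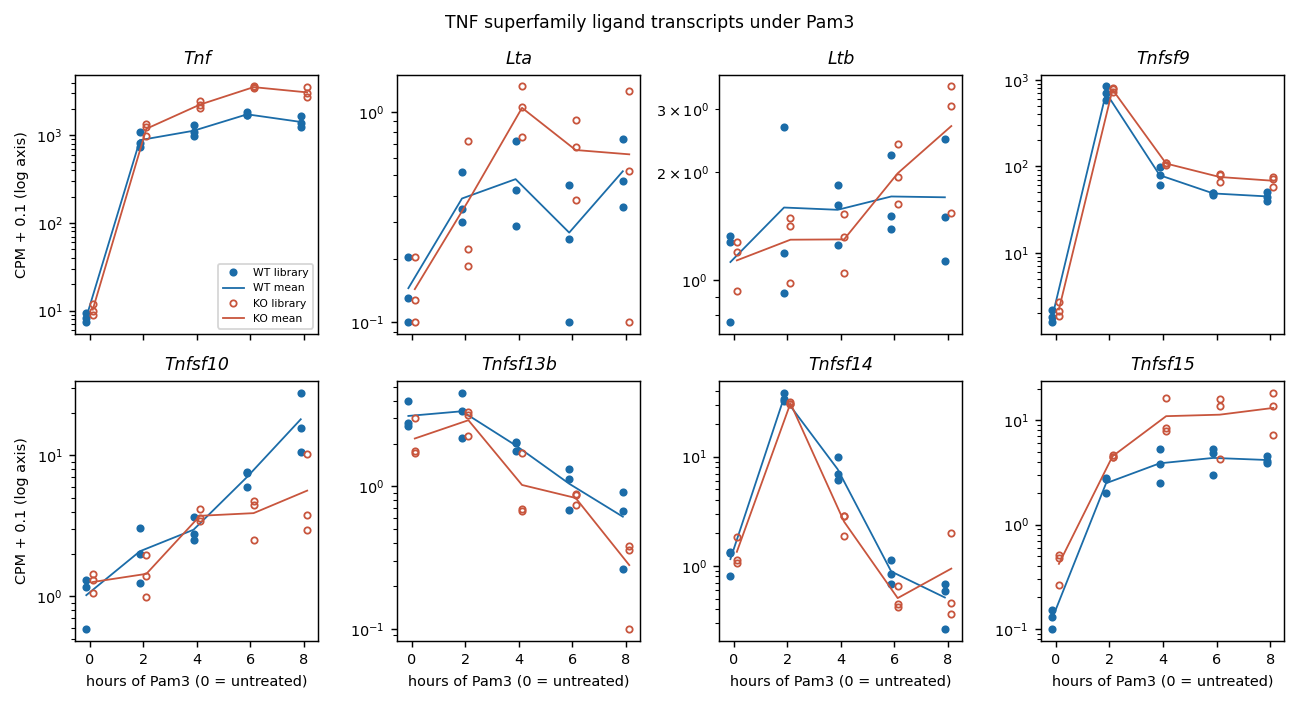
CPM + 0.1 (log axis, a scale of its own for each gene) against hours of Pam3, with untreated cells at 0, for WT (filled points) and KO (open points) libraries, 3 per group, and lines through the group means. Tnf stays high to 8 h, Tnfsf9 and Tnfsf14 peak at 2 h, and Tnfsf13b declines.

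Between genotypes the ligands went different ways. In untreated cells 0 of 8 were called, where 0.882% of all genes were (1 had an unadjusted p under 0.05 in edgeR, and DESeq2 called 1, Tnfsf15 in both cases). At 2, 4, 6 and 8 h of Pam3 0, 3, 3 and 5 of 8 were called, against 1.43%, 6.43%, 7.99% and 23.9% of all genes. At the same times of R837 1, 2, 3 and 4 of 8 were called, against 2.69%, 10.4%, 16.5% and 15.9%. Of these 21 calls, 15 were higher in KO cells and were of Tnf (5), Tnfsf9 (3) and Tnfsf15 (7), and 6 were lower and were of Tnfsf10 (4), Tnfsf13b (1) and Tnfsf14 (1). At 8 h the median log2 difference of the 8 was 0.65 under Pam3 and 0.47 under R837, beside -0.05 and 0.00 over all genes. Without the 18 WT libraries that held Y-linked transcripts, which leaves 1 WT library per condition, all 21 kept their direction. Most of them were no longer called in that fit, in which fewer of all genes were called too in every condition. In the 0 of 8 at Pam3 2 h, Tnf alone had an unadjusted p under 0.05 in edgeR, and DESeq2 called none.

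**Figure D3:**
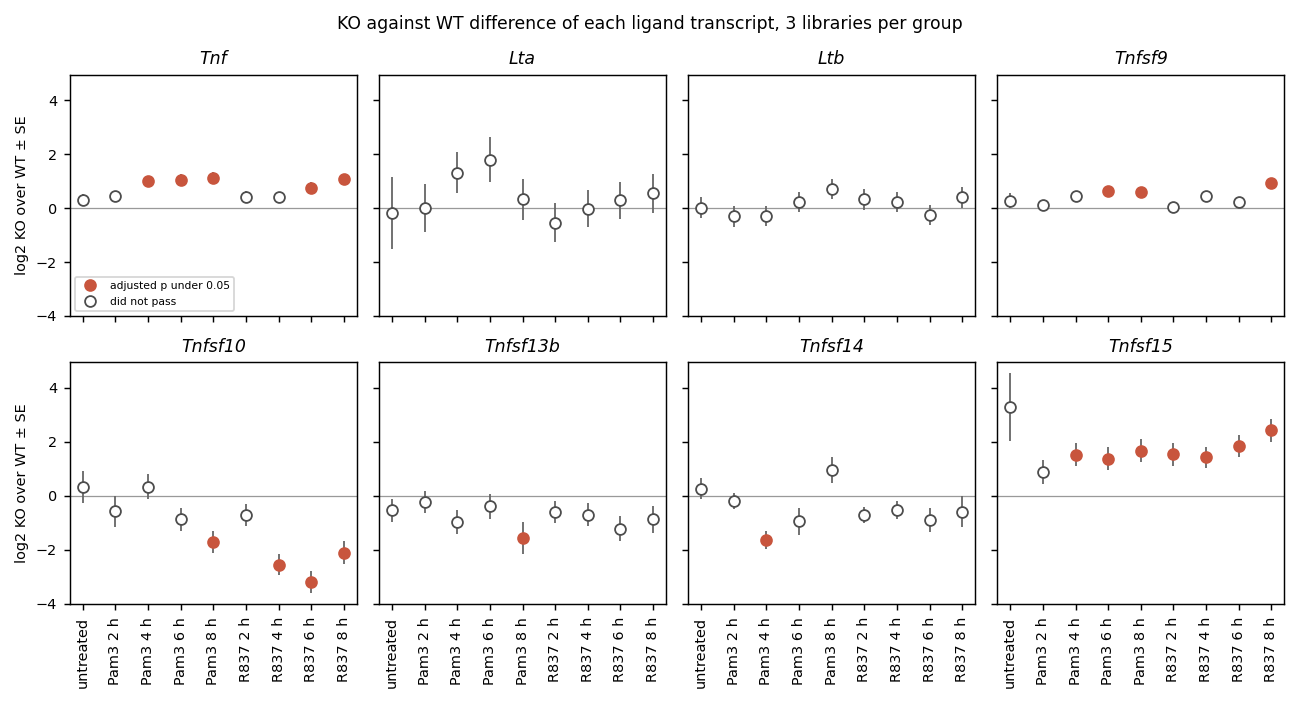
Log2 KO over WT of each ligand gene (y axis, shared by all panels) in the 9 conditions (x axis), with 3 libraries per group. Bars are ± 1 SE from edgeR, filled points passed at an adjusted p under 0.05 and open points did not. Tnf, Tnfsf9 and Tnfsf15 lie above 0 in all 9 conditions, and Tnfsf13b lies below 0 in all 9.

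Tnf encodes TNF itself, which binds TNFR1 and TNFR2. Its window of 250 bases before the RefSeq transcription start (chr17:35202008-35202257, GRCm38.p6, minus strand) holds a TATA box, in capitals, 29 to 24 bases before the start.
Tnf: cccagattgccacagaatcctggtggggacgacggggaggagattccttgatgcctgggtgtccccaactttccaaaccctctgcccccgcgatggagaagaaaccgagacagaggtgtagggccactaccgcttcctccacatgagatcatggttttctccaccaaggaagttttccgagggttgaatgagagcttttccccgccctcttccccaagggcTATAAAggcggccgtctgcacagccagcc
The letters TATAAA were searched on both strands and occur in 12.4% of 32851 such windows. The annotated Tnf 3′ untranslated region of 764 bases holds the AU-rich nonamer TTATTTATT 5 times, and 0.0846% of 2363 regions within 20% of its length hold at least as many. The 30 bases that hold the cluster of overlapping copies are shown because AU-rich elements are what the mRNA decay factors described below bind, with the nonamers in capitals.
Tnf AU-rich element: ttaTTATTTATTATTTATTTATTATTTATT

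In untreated cells Tnf stood at 8.22, 9.37 and 7.27 CPM in the 3 WT libraries and at 9.88, 11.8 and 8.75 CPM in the KO libraries. After 2 h of Pam3 the WT libraries held 810.3, 728 and 1105 CPM and the KO libraries 969, 1339.5 and 1254 CPM. The genotypes overlapped in both conditions, and every treated library was far above every untreated one. At 4 h the WT libraries held 1325, 978 and 1079 CPM and the KO libraries 2475, 2226 and 2024 CPM. At 6 h, the highest Pam3 mean in either genotype, WT libraries held 1692, 1822 and 1694 CPM and KO libraries 3596, 3622 and 3421 CPM. At 8 h they held 1240.2, 1645 and 1378 and 3525, 2713 and 3027 CPM. From 4 h of Pam3 on, all KO libraries lay above all WT libraries, and the differences were 0.99 ± 0.21 (edgeR adjusted p = 0.00237), 1.03 ± 0.21 (edgeR adjusted p = 0.0011) and 1.12 ± 0.21 (edgeR adjusted p = 0.000146) at 4, 6 and 8 h. Before that they were 0.30 ± 0.24 (edgeR adjusted p = 0.777) in untreated cells and 0.43 ± 0.21 (edgeR adjusted p = 0.412) at 2 h. Without the WT libraries that held Y-linked transcripts the Tnf differences at 4, 6 and 8 h of Pam3 were 0.76 (edgeR adjusted p = 0.0697), 1.07 (edgeR adjusted p = 0.0048) and 1.32 (edgeR adjusted p = 0.000311).

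Under R837 the WT libraries spread more widely in Tnf. At 4 h they held 1664, 2654 and 4133 CPM and the KO libraries 3836, 4065 and 3246 CPM, and the highest of these 6 libraries was a WT one. At 6 h WT libraries held 1944, 2763 and 3305 CPM and KO libraries 3903, 4856 and 4757 CPM, and at 8 h they held 1439, 2103 and 2715 and 3611, 4840.2 and 4583 CPM. In each of these R837 groups WT replicate 1 was the library with the most Y-linked transcripts and replicate 3 the one with at most 0.159 CPM, so that the lowest Tnf went with the most Y-linked transcript and the highest with the least. Under Pam3 the relation was the same at 2 and 4 h. The libraries with the most Y-linked transcript held 728 and 978 CPM of Tnf there, and those with the least 1105 and 1325 CPM. At 6 and 8 h of Pam3 the relation was the reverse. At 8 h Tnf stood at 1240.2 CPM in the library without Y-linked transcripts and 1645 CPM in the one with the most. The part of these libraries' source in the result was not tested. The genotype differences were 0.41 ± 0.21 (edgeR adjusted p = 0.414), 0.40 ± 0.21 (edgeR adjusted p = 0.28), 0.75 ± 0.21 (edgeR adjusted p = 0.00972) and 1.06 ± 0.21 (edgeR adjusted p = 0.000323) at 2, 4, 6 and 8 h. Against the WT libraries without Y-linked transcripts alone they were 0.22, -0.17, 0.45 (edgeR adjusted p = 0.21) and 0.67 (edgeR adjusted p = 0.0421), so the 6 h call ended and the 4 h value turned negative. Tnf at R837 4 h was called without WT R837 4 h replicate 3 (log2 0.78, edgeR adjusted p = 0.0128), and at R837 6 h the call was lost without WT R837 6 h replicate 1 (log2 0.57, edgeR adjusted p = 0.106).

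Whether the response to an agonist differed between genotypes over the 4 times was tested with F-tests, in which 4.64% of all genes were called for Pam3, 7.47% for R837 and 4.12% for the difference between agonists, and 1 of the 8 ligands in each. Tnf was not called in any of them (edgeR adjusted p = 0.243, 0.423 and 0.748). In WT cells Tnf was higher with R837 than with Pam3 at 4 h by 1.32 ± 0.22 (edgeR adjusted p = 5.94e-06) and at 6 h by 0.62 ± 0.21 (edgeR adjusted p = 0.0283), and the differences at 2 and 8 h were 0.11 ± 0.21 and 0.55 ± 0.21. The 6 h call was lost without any 1 of the 3 WT Pam3 6 h libraries or of WT R837 6 h replicates 2 and 3 (edgeR adjusted p = 0.0553 to 0.208), and Tnf at 8 h was called without WT R837 8 h replicate 1 (log2 0.76, edgeR adjusted p = 0.016). In that comparison of agonists 1, 4, 4 and 1 of 8 ligands were called at 2, 4, 6 and 8 h, all higher with R837, beside 4.78%, 21.9%, 22.7% and 11.5% of all genes. From 4 to 8 h Tnf did not pass in any of the 4 series (log2 0.33 ± 0.21, -0.43 ± 0.21, 0.46 ± 0.21 and 0.23 ± 0.21 for WT Pam3, WT R837, KO Pam3 and KO R837), although WT R837 passed without WT R837 4 h replicate 1 (log2 -0.70, edgeR adjusted p = 0.00705) or without WT R837 8 h replicate 3 (log2 -0.67, edgeR adjusted p = 0.0239).

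**Figure D4:**
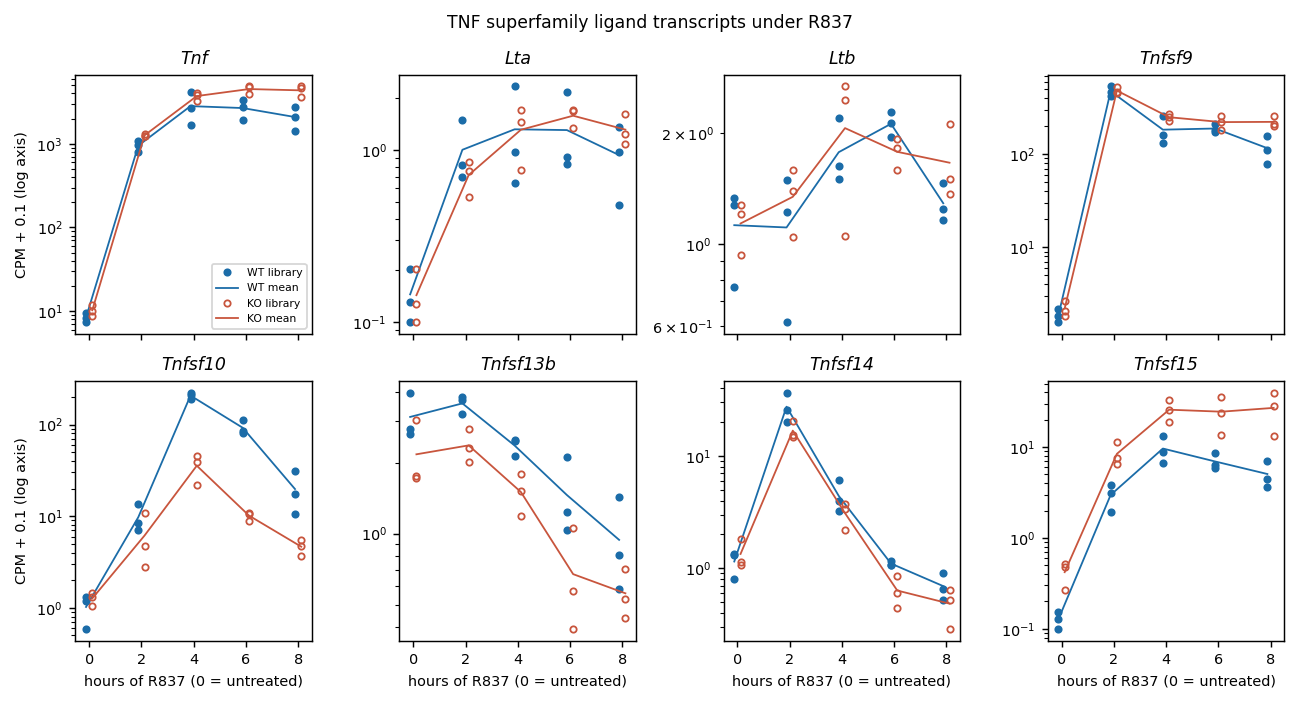
CPM + 0.1 (log axis, a scale of its own for each gene) against hours of R837, with untreated cells at 0, for WT (filled points) and KO (open points) libraries, 3 per group, and lines through the group means. Tnfsf10 peaks at 4 h in both genotypes and lies lower in KO libraries from 4 h on, while Tnfsf15 lies higher in them.

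Lta encodes lymphotoxin-alpha, which is secreted as a trimer that binds the TNF receptors or joins lymphotoxin-beta, the product of Ltb, in a membrane-bound trimer that binds the lymphotoxin-beta receptor. Both genes are used mainly by lymphocytes, and both were near the limit of detection here. The window before Lta is shown beside that of its neighbour Tnf because the 2 genes differ in level by orders of magnitude over a distance of 1157 bases (chr17:35205352-35205601, GRCm38.p6, minus strand); its letters TATAAA, in capitals, lie 167 to 162 bases before the start.
Lta: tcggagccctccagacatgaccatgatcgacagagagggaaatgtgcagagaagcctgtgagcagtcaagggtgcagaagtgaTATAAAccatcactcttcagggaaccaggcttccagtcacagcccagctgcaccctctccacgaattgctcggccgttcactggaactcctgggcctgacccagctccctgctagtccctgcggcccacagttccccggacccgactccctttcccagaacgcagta
The Lta 3′ untranslated region holds the AU-rich nonamer once, and 3.25% of 2092 regions of like length hold at least 1. The nonamer is in capitals in the 30 bases around it.
Lta AU-rich element: aaaagttaagTTATTTATTtatagagaata

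Untreated WT libraries held 5 counts of Lta in all, and KO libraries 4. After 4 h of R837 WT libraries stood at 0.872, 0.544 and 2.25 CPM, and after 4 h of Pam3 at 0.625, 0.323 and 0.188 CPM. All of these lay above the untreated libraries, which reached 0.105 CPM. Scaled for library size, the summed counts were 27.1 (95% interval 11.3 to 85) times those of untreated cells at R837 4 h and 7.9 (95% interval 3.08 to 25.8) times at Pam3 4 h, intervals that cover counting error only. Lta was called at 7 of the 8 ligand times, with the highest edgeR adjusted p, 0.0458, at Pam3 2 h. At Pam3 2 h the call was lost without WT untreated replicate 1 or 2 or WT Pam3 2 h replicate 1 or 2 (edgeR adjusted p = 0.0609 to 0.167), and without WT untreated replicate 3 the log2 change was 3.94 in place of 2.53. Without the WT libraries that held Y-linked transcripts the Lta calls at 2, 4 and 8 h of Pam3 and 2 and 8 h of R837 ended (edgeR adjusted p = 0.832, 0.255, 0.237, 0.103 and 0.0699). Their log2 changes were 0.88 to 3.67. At Pam3 4 h it was lost without WT untreated replicate 1 or 2 or WT Pam3 4 h replicate 1 (edgeR adjusted p = 0.0548 to 0.087), and at Pam3 8 h without WT untreated replicate 1 (log2 2.51, edgeR adjusted p = 0.0511). R837 gave more Lta than Pam3 at 6 h, by 2.89 ± 0.82 (edgeR adjusted p = 0.00701), a call lost without WT Pam3 6 h replicate 3 (log2 2.30, edgeR adjusted p = 0.0596) or WT R837 6 h replicate 3 (log2 2.25, edgeR adjusted p = 0.0735), and without the WT libraries with Y-linked transcripts (log2 3.78, edgeR adjusted p = 0.185). Between genotypes Lta was called in 0 of 9 conditions, with differences from -0.54 to 1.80, and SE from 0.68 to 1.32, so that only large differences were detectable at these counts. The B and plasma cell markers, higher in KO libraries throughout, are given above.

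Ltb stood at 0.664, 1.23 and 1.18 CPM in untreated WT libraries and at 0.831, 1.18 and 1.1 CPM in untreated KO libraries. Over all 18 groups its mean ran from 1.01 CPM in WT R837 2 h to 2.59 CPM in KO Pam3 8 h, while its neighbour Tnf ranged over more than 2 orders of magnitude in CPM. Ltb rose in WT cells at R837 6 h by 0.97 ± 0.38 (edgeR adjusted p = 0.0244), which was lost without WT untreated replicate 1 (log2 0.77, edgeR adjusted p = 0.118) or WT R837 6 h replicate 1 (log2 0.92, edgeR adjusted p = 0.0602), with no filter on low counts (edgeR adjusted p = 0.0563) and without the WT libraries with Y-linked transcripts (edgeR adjusted p = 0.465). In KO cells it rose from Pam3 4 h to 8 h by 1.12 ± 0.38 (edgeR adjusted p = 0.0166), which was lost without KO Pam3 4 h replicate 3 (log2 0.97, edgeR adjusted p = 0.0778) or KO Pam3 8 h replicate 2 (log2 0.88, edgeR adjusted p = 0.0821). Between genotypes Ltb was called in 0 of 9 conditions, and at Pam3 8 h it was 0.71 ± 0.37 (edgeR adjusted p = 0.16), and was called without KO Pam3 8 h replicate 1 (log2 0.99, edgeR adjusted p = 0.0448). The unadjusted p of Lta was under 0.05 in 1 of the 9 genotype comparisons (Pam3 6 h) and that of Ltb in none, and DESeq2 called neither gene in any of the comparisons where it gave an adjusted p (it gave none for Lta at Pam3 2 h). The gene on the far side of Lta, Nfkbil1, was at 12.5 ± 0.601 CPM in untreated and 7.83 ± 0.59 CPM in R837 4 h WT cells, a log2 difference of -0.67 ± 0.21 (edgeR adjusted p = 0.00525). Lst1, beyond Ltb, rose by 0.85 ± 0.17 (edgeR adjusted p = 3.31e-05).

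Tnfsf9 encodes the ligand of CD137, a co-stimulatory receptor of T cells. It rose from 1.47, 2.06 and 1.73 CPM in untreated WT libraries to 695, 584 and 840.3 CPM at Pam3 2 h, a log2 change of 8.65 ± 0.27 (edgeR adjusted p = 4.81e-28). By 8 h of Pam3 it was back to 40.0, 49.8 and 44.4 CPM, still above every untreated library. With R837 it stood at 427, 461 and 536 CPM at 2 h and 79.2, 111 and 158 CPM at 8 h, so that the early peak was lower and the later level higher than with Pam3. R837 against Pam3 in WT cells gave -0.57 ± 0.18 (edgeR adjusted p = 0.0633) at 2 h, and 1.22 ± 0.19 (edgeR adjusted p = 1.93e-06), 1.96 ± 0.19 (edgeR adjusted p = 8.76e-11) and 1.38 ± 0.19 (edgeR adjusted p = 1.28e-06) at 4, 6 and 8 h. At 2 h the libraries did not overlap, and the difference was called without WT Pam3 2 h replicate 2 (log2 -0.69, edgeR adjusted p = 0.0299).

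At the 2 h peak KO and WT libraries overlapped, with 722, 778 and 810.1 CPM of Tnfsf9 in KO libraries under Pam3, a difference of 0.13 ± 0.18, and 529, 455 and 462 CPM under R837, a difference of 0.02 ± 0.18. At 8 h of R837 KO libraries held 202, 209.5 and 256 CPM, all above the WT libraries, a difference of 0.94 ± 0.19 (edgeR adjusted p = 0.000253). At 6 and 8 h of Pam3 the differences were 0.63 ± 0.19 (edgeR adjusted p = 0.0285) and 0.60 ± 0.19 (edgeR adjusted p = 0.0173), again with no overlap. The Pam3 6 h call was lost without any 1 of the 3 WT libraries or of KO replicates 1 and 3 (edgeR adjusted p = 0.0613 to 0.142), and the Pam3 8 h call without WT replicate 1 or 3 or KO replicate 2 (edgeR adjusted p = 0.0535 to 0.0843). Tnfsf9 at R837 4 h, at 0.44 ± 0.18 (edgeR adjusted p = 0.136), was called without WT R837 4 h replicate 3 (log2 0.76, edgeR adjusted p = 0.00524). Against the WT libraries without Y-linked transcripts the 3 called values were 0.61 (edgeR adjusted p = 0.162), 0.77 (edgeR adjusted p = 0.0218) and, at R837 8 h, 0.49 (edgeR adjusted p = 0.148). At R837 8 h the 3 WT libraries again ran from the one with the most Y-linked transcript, the lowest, to the one with none, the highest. From 4 to 8 h Tnfsf9 fell in WT cells under Pam3, changing on the log2 scale by -0.82 ± 0.19 (edgeR adjusted p = 0.000735), and under R837, with -0.66 ± 0.19 (edgeR adjusted p = 0.00458). In KO cells it fell under Pam3, with -0.66 ± 0.19 (edgeR adjusted p = 0.00429), and under R837 the value was -0.17 ± 0.18 (edgeR adjusted p = 0.529). The WT R837 fall was lost without WT R837 4 h replicate 3 (log2 -0.34, edgeR adjusted p = 0.174) or WT R837 8 h replicate 1 (log2 -0.45, edgeR adjusted p = 0.0784). Of the 8 ligands 4, 4, 4 and 3 were called between 4 and 8 h in WT Pam3, WT R837, KO Pam3 and KO R837, beside 28.8%, 33.5%, 39.1% and 35.7% of all genes. The F-tests did not call Tnfsf9 (edgeR adjusted p = 0.683 for Pam3 and 0.14 for R837), the latter being called without WT R837 4 h replicate 3 (edgeR adjusted p = 0.0291) or WT R837 8 h replicate 3 (edgeR adjusted p = 0.0117).

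Tnfsf14 encodes LIGHT, which binds the lymphotoxin-beta receptor and HVEM, the product of Tnfrsf14. The window before its start is shown for the single AP-1 site it holds, TGAGTCA, in capitals, 160 to 154 bases before the start (chr17:57194182-57194431, GRCm38.p6, minus strand).
Tnfsf14: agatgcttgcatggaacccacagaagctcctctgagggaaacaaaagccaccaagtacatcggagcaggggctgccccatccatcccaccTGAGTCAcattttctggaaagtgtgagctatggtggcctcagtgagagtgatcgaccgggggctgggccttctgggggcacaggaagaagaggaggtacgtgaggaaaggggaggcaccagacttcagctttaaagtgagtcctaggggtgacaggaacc
The palindromic letters TGANTCA, which match both strands at once, occur in 6.75% of the 32851 windows. Neither kappaB, ISRE, TGACGTCA nor TATAAA letters are in the Tnfsf14 window. The site is not particular to Tnfsf14, as a window of Tnfsf13b, which fell in WT cells, holds TGAGTCA and ISRE letters too. The Ltb window holds kappaB letters and the Tnf window does not. The Tnfsf10 and Tnfsf15 windows hold none of these motifs. Whether any of these letters act in the responses was not tested.

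Untreated WT libraries held 1.21, 1.23 and 0.706 CPM of Tnfsf14, Pam3 2 h libraries 33.7, 38.3 and 32.2 CPM and Pam3 4 h libraries 6.05, 6.85 and 9.82 CPM. At 6 h the WT libraries were at 0.742, 0.585 and 1.03 CPM and at 8 h at 0.491, 0.165 and 0.579 CPM. The pulse thus ended by 6 h, and at 8 h all 3 libraries were below all untreated ones, a log2 change of -1.26 ± 0.47 (edgeR adjusted p = 0.0214), a call lost without WT untreated replicate 1 (log2 -1.12, edgeR adjusted p = 0.0716) or 2 (log2 -1.19, edgeR adjusted p = 0.0529) or WT Pam3 8 h replicate 2 (log2 -0.94, edgeR adjusted p = 0.115), and at -0.53 (edgeR adjusted p = 0.742) without the WT libraries with Y-linked transcripts. R837 gave 36.2, 25.6 and 19.9 CPM at 2 h and 3.83, 5.94 and 3.13 CPM at 4 h. No difference between agonists was called, and at 4 h it was -0.83 ± 0.32 (edgeR adjusted p = 0.0622), called without WT Pam3 4 h replicate 1 (log2 -0.96, edgeR adjusted p = 0.0487) or WT R837 4 h replicate 2 (log2 -1.12, edgeR adjusted p = 0.0255).

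KO libraries held 31.8, 30.1 and 30.4 CPM of Tnfsf14 at Pam3 2 h, below all WT libraries by a difference that was not called, -0.18 ± 0.30 (edgeR adjusted p = 0.912). At Pam3 4 h they held 1.79, 2.75 and 2.77 CPM, all below the WT libraries, a difference of -1.63 ± 0.34 (edgeR adjusted p = 0.0015), and -1.31 (edgeR adjusted p = 0.369) without the WT libraries that held Y-linked transcripts. At Pam3 6 h and at 2, 4, 6 and 8 h of R837 the differences were -0.94, -0.71, -0.51, -0.88 and -0.58, and none was called. At Pam3 8 h KO libraries held 0.36, 0.26 and 1.9 CPM, the last of them in the library with counts in 12263 genes. There the difference was 0.96 ± 0.49 (edgeR adjusted p = 0.155), and it was -0.50 without that library and called without KO Pam3 8 h replicate 1 (log2 1.29, edgeR adjusted p = 0.0463) or 2 (log2 1.41, edgeR adjusted p = 0.0266). The response of Tnfsf14 to Pam3 over the 4 times differed between genotypes (F-test, edgeR adjusted p = 0.0155), with KO minus WT changes of -0.44, -1.90, -1.20 and 0.69 at 2, 4, 6 and 8 h. Without the WT libraries that held Y-linked transcripts the edgeR adjusted p of this test was 1. The call ended in limma voom (adjusted p = 0.108), in the fit of only the groups compared (edgeR adjusted p = 0.0655), and when WT replicate 1, 2 or 3 was left out in all conditions (edgeR adjusted p = 0.0601, 0.12 and 0.153). The call was also lost without WT Pam3 4 h replicate 3 (edgeR adjusted p = 0.0567) or KO Pam3 4 h replicate 1 (edgeR adjusted p = 0.055), and held without KO Pam3 8 h replicate 3 (edgeR adjusted p = 0.0109) or KO untreated replicate 2 (edgeR adjusted p = 0.0228), with the mean of the 4 changes at -1.08 and -0.38 in place of -0.71. From 4 to 8 h Tnfsf14 fell in all 4 series, with log2 changes of -4.12, -2.88, -1.53 and -2.95 in WT Pam3, WT R837, KO Pam3 and KO R837 (edgeR adjusted p = 0.00229 or lower), and in KO Pam3 the change was -2.98 without replicate 3 of 8 h.

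Tnfsf15 encodes TL1A, the ligand of the T cell receptor DR3. It was nearly absent from untreated WT cells, with 1, 0 and 2 counts in the 3 libraries, and rose to 1.89, 2.67 and 2.62 CPM at Pam3 2 h and 6.51, 8.81 and 13.3 CPM at R837 4 h. Scaled for library size, the summed counts were 82.6 (95% interval 27.8 to 404) and 339 (95% interval 116 to 1648) times those of untreated cells. Under Pam3 the WT means at 4, 6 and 8 h were 3.77 ± 1.4, 4.26 ± 1.21 and 4.06 ± 0.326 CPM. R837 exceeded Pam3 at 4 h by 1.34 ± 0.42 (edgeR adjusted p = 0.0162), a call lost without WT Pam3 4 h replicate 2 (log2 1.13, edgeR adjusted p = 0.0962) or WT R837 4 h replicate 3 (log2 1.02, edgeR adjusted p = 0.127), and without the WT libraries with Y-linked transcripts (log2 1.39, edgeR adjusted p = 0.497).

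Of the 8 ligands, Tnfsf15 was called higher in KO cells in the most conditions, 7 of 9. At R837 8 h KO libraries held 39.5, 13.3 and 28.1 CPM and WT libraries 3.54, 4.35 and 6.97 CPM. At Pam3 8 h they held 18.3, 7.18 and 13.8 and 4.42, 3.99 and 3.78 CPM. The KO libraries spread widely at R837 8 h, and all of them lay above all WT libraries in 8 of the 9 conditions. At Pam3 6 h the groups overlapped, with 16, 13.5 and 4.16 CPM in KO and 5.17, 2.89 and 4.72 CPM in WT libraries. The differences were 2.44 ± 0.42 (edgeR adjusted p = 4.11e-05) and 1.68 ± 0.42 (edgeR adjusted p = 0.003) at 8 h of R837 and Pam3, and 1.83 ± 0.41 (edgeR adjusted p = 0.000944) at R837 6 h. At 4 and 6 h of Pam3 and 2 and 4 h of R837 they were 1.53 ± 0.42, 1.38 ± 0.42, 1.54 ± 0.43 and 1.43 ± 0.40 (edgeR adjusted p = 0.0203, 0.0309, 0.0404 and 0.0139). Each of these 4 calls was lost when 1 or another of the libraries compared was left out. At R837 2 h the call was lost without any 1 of the 6 libraries (edgeR adjusted p = 0.0519 to 0.214), at Pam3 4 h without WT replicate 2 or 3 or KO replicate 3 (0.0776 to 0.129), at Pam3 6 h when WT replicate 2, WT replicate 3, KO replicate 1 or KO replicate 2 was left out (0.0756 to 0.156), and at R837 4 h without WT replicate 1 or 2 or KO replicate 3 (0.0606 to 0.106). Without the WT libraries that held Y-linked transcripts the 7 differences were 0.94 to 1.94 and none was called (edgeR adjusted p = 0.117 or higher).

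In untreated cells, KO libraries held 14, 6 and 11 counts of Tnfsf15 against the 3 in WT libraries, a ratio of 11 (95% interval 3.42 to 56) after scaling. The fitted difference was 3.29 ± 1.25 (edgeR adjusted p = 0.286), and DESeq2 gave an adjusted p of 0.0265. At Pam3 2 h the difference was 0.89 ± 0.45 (edgeR adjusted p = 0.437), with 4.55, 4.33 and 4.38 CPM in KO libraries, above all WT libraries. None of the F-tests called Tnfsf15 (edgeR adjusted p = 0.787, 0.781 and 0.851). From 4 to 8 h it was not called in any series, and in WT R837 it was -0.94 ± 0.42 (edgeR adjusted p = 0.0788), called without WT R837 4 h replicate 1 (log2 -1.16, edgeR adjusted p = 0.0476) or WT R837 8 h replicate 3 (log2 -1.28, edgeR adjusted p = 0.0404).

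Tnfsf10 encodes TRAIL, a ligand that can trigger cell death through the death receptor DR5 and whose gene is induced by interferons. WT libraries held 0.491, 1.2 and 1.07 CPM untreated, 2.4, 2.65 and 3.57 CPM at Pam3 4 h and 189, 222 and 211 CPM at R837 4 h. At 8 h they held 10.5, 27.6 and 15.6 CPM with Pam3 and 10.5, 17.5 and 31 CPM with R837, groups that overlapped. With R837 it thus peaked at 4 h and fell, while with Pam3 it rose to 8 h. R837 against Pam3 gave 2.28 ± 0.47 (edgeR adjusted p = 0.00123), 6.17 ± 0.48 (edgeR adjusted p = 2.28e-13), 3.73 ± 0.42 (edgeR adjusted p = 5.31e-09) and 0.14 ± 0.39 (edgeR adjusted p = 0.89) at 2, 4, 6 and 8 h. Between 4 and 8 h the WT change was 2.63 ± 0.44 (edgeR adjusted p = 7.58e-06) with Pam3 and -3.40 ± 0.41 (edgeR adjusted p = 1.34e-08) with R837. At Pam3 4 h the rise over untreated cells, 1.64 ± 0.54 (edgeR adjusted p = 0.0102), was lost without WT untreated replicate 1 (log2 1.33, edgeR adjusted p = 0.0645) and without the WT libraries with Y-linked transcripts (log2 1.16, edgeR adjusted p = 0.371). The R837 against Pam3 call at 2 h was lost when WT replicate 1 was left out in all conditions (log2 1.90, edgeR adjusted p = 0.0996) and without the WT libraries with Y-linked transcripts (log2 1.52, edgeR adjusted p = 0.874). In the latter fit the rise from 4 to 8 h of Pam3 was lost too (log2 2.12, edgeR adjusted p = 0.099).

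In KO cells this R837 peak was lower. At R837 4 h KO libraries held 39.3, 21.5 and 45.6 CPM, and at 6 h 8.82, 10.6 and 10.7 CPM, when WT libraries held 85, 80.8 and 111 CPM. At 8 h KO libraries held 3.58, 4.68 and 5.38 CPM. All KO libraries lay below all WT libraries at these 3 times, and the differences were -2.55 ± 0.39 (edgeR adjusted p = 9.31e-06), -3.20 ± 0.41 (edgeR adjusted p = 1.73e-07) and -2.11 ± 0.42 (edgeR adjusted p = 0.000333). These 3 calls held without the WT libraries that held Y-linked transcripts, at -2.58 (edgeR adjusted p = 0.00222), -3.46 (edgeR adjusted p = 3.88e-05) and -2.77 (edgeR adjusted p = 0.00128), and in every other fit tried. Under Pam3 KO libraries held 10.0, 3.67 and 2.86 CPM at 8 h, a difference of -1.71 ± 0.41 (edgeR adjusted p = 0.0023), which was -0.93 (edgeR adjusted p = 0.403) without those WT libraries. This Pam3 call also ended in the fit of only the groups compared (edgeR adjusted p = 0.111) and when WT replicate 2 was left out in all conditions (log2 -1.27, edgeR adjusted p = 0.0592), and the value was -2.45 (edgeR adjusted p = 0.000118) without KO Pam3 8 h replicate 1. At 4 h of Pam3 the genotypes overlapped, at 0.34 ± 0.47 (edgeR adjusted p = 0.76). The response to R837 over the 4 times differed between genotypes (F-test, edgeR adjusted p = 0.00117), with KO minus WT changes of -1.02, -2.88, -3.53 and -2.44. The genotype difference itself also differed between R837 and Pam3 (edgeR adjusted p = 0.00143), by -0.12, -2.88, -2.32 and -0.40 at 2, 4, 6 and 8 h. Without the WT libraries that held Y-linked transcripts these 2 tests gave edgeR adjusted p = 0.113 and 0.0647, and in limma voom the first was not called (adjusted p = 0.0796). For Pam3 alone the F-test gave an edgeR adjusted p of 0.163, and 0.0179 without KO Pam3 8 h replicate 1.

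Tnfsf13b encodes BAFF, a survival factor for B cells. It was the only one of the 8 ligands called lower than untreated cells at 6 h of both agonists in WT cells. Its 3′ untranslated region of 3631 bases holds the AU-rich nonamer once, and 16% of 1817 regions of like length hold at least 1. The 30 bases around it are shown to set beside those of Tnf and Lta.
Tnfsf13b AU-rich element: attggcccatTTATTTATTgaattgtttgg
The 3′ untranslated regions of the other 5 ligands hold no nonamer, whose letters occur in 7.66% of 21037 annotated regions. WT libraries held 2.68, 3.85 and 2.54 CPM of Tnfsf13b untreated, 0.567, 0.165 and 0.806 CPM at Pam3 8 h and 0.481, 0.707 and 1.33 CPM at R837 8 h. The treated libraries lay below the untreated ones, and the changes were -2.49 ± 0.46 (edgeR adjusted p = 1.01e-05) and -1.84 ± 0.45 (edgeR adjusted p = 0.000468). At 6 h they were -1.66 ± 0.43 (edgeR adjusted p = 0.00116) and -1.14 ± 0.42 (edgeR adjusted p = 0.0181), the latter lost without WT untreated replicate 2 (log2 -1.03, edgeR adjusted p = 0.0571) or WT R837 6 h replicate 1 (log2 -0.94, edgeR adjusted p = 0.0902) or 2 (log2 -1.03, edgeR adjusted p = 0.0694). None of these 4 falls was called without the WT libraries that held Y-linked transcripts, where the changes at 6 and 8 h were -1.05 and -2.16 with Pam3 and -0.32 and -0.92 with R837 (edgeR adjusted p = 0.404, 0.0837, 0.811 and 0.443). The fall continued between 4 and 8 h in all 4 series, with log2 changes from -2.35 in KO Pam3 to -1.42 in WT R837, the last lost without WT R837 8 h replicate 1 (log2 -1.12, edgeR adjusted p = 0.0919). Both WT changes missed the threshold without the WT libraries with Y-linked transcripts. They were -1.77 with Pam3 and -0.86 with R837 (edgeR adjusted p = 0.327 and 0.652). The values of Tnfsf13b were lower in KO than in WT cells in 9 of 9 conditions, from -1.56 to -0.22, with 1 call. At Pam3 8 h KO libraries held 7, 8 and 0 counts and WT libraries 15, 4 and 32, groups that overlapped, for a difference of -1.56 ± 0.58 (edgeR adjusted p = 0.0467). That call was lost without WT replicate 1 (log2 -1.54, edgeR adjusted p = 0.0777) or 3 (log2 -1.03, edgeR adjusted p = 0.31) or KO replicate 3 (log2 -0.99, edgeR adjusted p = 0.254), the library with counts in 12263 genes, and it was -1.64 (edgeR adjusted p = 0.315) without the WT libraries that held Y-linked transcripts. The values at R837 6 h, -1.22 ± 0.46 (edgeR adjusted p = 0.0604), and Pam3 4 h, -0.98 ± 0.44 (edgeR adjusted p = 0.195), were called without KO R837 6 h replicate 2 (log2 -1.84, edgeR adjusted p = 0.0145) or WT R837 6 h replicate 1 (log2 -1.42, edgeR adjusted p = 0.0486), and without KO Pam3 4 h replicate 3 (log2 -1.65, edgeR adjusted p = 0.0387).

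The order of the 18 group means separated few neighbours. Of the 17 steps from one group to the next lower one, the libraries of the adjoining groups overlapped in 12 for Tnfsf9, 13 for Tnfsf14, 15 each for Tnf, Tnfsf10 and Tnfsf15, 16 for Tnfsf13b and 17 each for Lta and Ltb. The genes whose pattern over the 18 group means of log2(CPM + 1) was most like that of a ligand, among genes of at least 5 CPM in some group, were named as a description, with groups that share culture and library steps. For Tnf they were Cxcl2 (r = 0.996), Il1b (r = 0.992), Gpr84 (r = 0.991), all induced genes of the macrophage response. For Tnfsf10 they were Cmpk2 (r = 0.989), Ifit2 (r = 0.977), Irgm1 (r = 0.977), which are interferon-induced. For Tnfsf9 they were Dusp1 (r = 0.977), Stk40 (r = 0.961), Lrrc63 (r = 0.958), and for Tnfsf14 Map2k3 (r = 0.98), Mpp5 (r = 0.974), Rgcc (r = 0.971). For Tnfsf15 they were Gspt1 (r = 0.98), Tmem123 (r = 0.971), C3 (r = 0.962), and for Tnfsf13b Txndc16 (r = 0.985), Naglu (r = 0.981), Selenon (r = 0.979). The low counts of Lta and Ltb gave lower values, with Nxpe3 (r = 0.914), Dcun1d3 (r = 0.89), Yju2 (r = 0.885) and Dtnb (r = 0.825), Med27 (r = 0.816), Txn-ps1 (r = 0.814). C3, which was among those for Tnfsf15, is the gene next to Tnfsf14.

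Receptors for these ligands were measured in the same libraries, 11 of 13 past the filter. In WT cells 5 rose and 2 fell after 4 h of Pam3 (median log2 0.30, beside -0.01 over all genes), and 4 rose and 3 fell after 4 h of R837 (median 0.57, beside -0.04), where 49.0% and 53.8% of all genes were called. Tnfrsf1b, which encodes TNFR2, rose from 734 ± 44.8 to 4529 ± 371 CPM at R837 4 h, by 2.63 ± 0.11 (edgeR adjusted p = 3.13e-25). Tnfrsf9, the receptor of the Tnfsf9 product, rose at Pam3 4 h by 6.95 ± 0.61 (edgeR adjusted p = 8.15e-13), and Tnfrsf14 by 1.53 ± 0.24 (edgeR adjusted p = 6.13e-07). Tnfrsf13b, a BAFF receptor, fell, changing on the log2 scale by -1.02 ± 0.11 (edgeR adjusted p = 1.39e-10) at R837 4 h. Between genotypes 0 to 2 of the 11 receptors were called in a condition, beside 0.882% to 23.9% of all genes. Tnfrsf1a, which encodes TNFR1, was lower in KO cells at 2 and 4 h of Pam3 and 4 and 6 h of R837, with log2 differences of -0.53 to -0.31, with 299 ± 43.5 against 433 ± 22.3 CPM at R837 4 h (edgeR adjusted p = 9.35e-06). Tnfrsf23, a decoy receptor of TRAIL in the mouse, was lower at Pam3 6 h, with -1.58 ± 0.41 (edgeR adjusted p = 0.00921), and at 8 h, with -1.39 ± 0.42 (edgeR adjusted p = 0.0133). Tnfrsf13b, the remaining receptor called, was higher in KO cells at R837 4 h, by 0.36 (edgeR adjusted p = 0.0329). All 7 receptor calls kept their direction without the WT libraries that held Y-linked transcripts. The call that held was that of Tnfrsf1a at R837 4 h (log2 -0.53, edgeR adjusted p = 0.0498).

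Genes that act in the release of membrane-bound ligands changed in WT cells within 2 h. Of 8, all past the filter, 6 rose and 2 fell at Pam3 2 h, and 6 rose and 2 fell at R837 2 h, where 41.0% and 42.0% of all genes were called. Their median log2 change was 0.77 and 0.91, beside 0.03 and 0.01 over all genes. Adam17, which encodes the protease that sheds TNF, rose at Pam3 4 h by 0.99 ± 0.10 (edgeR adjusted p = 2.89e-12), and Rhbdf2, whose product iRhom2 carries ADAM17 to the surface, by 2.45 ± 0.11 (edgeR adjusted p = 3.15e-23). Between genotypes 0 to 1 of the 8 were called in a condition, beside 0.882% to 23.9% of all genes, and Adam17 and Rhbdf2 were called in none. The calls were of Adam10 (2), Sppl2b (1) and Timp3 (1), all lower in KO cells.

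Genes whose products bind and destabilise Tnf mRNA or limit its translation, 7 of 7 past the filter, moved in both directions. At R837 4 h in WT cells 4 rose and 3 fell, where 53.8% of all genes were called, and their median log2 change was 0.30, beside -0.04 over all genes. Zfp36, which encodes tristetraprolin, the protein that binds AU-rich elements such as that of Tnf, rose by 4.26 ± 0.10 (edgeR adjusted p = 1.89e-34) to 2204 ± 206 CPM, and Zc3h12a, which encodes the endonuclease Regnase-1, by 4.29 ± 0.10 (edgeR adjusted p = 6.48e-34). The paralogues Zfp36l1 and Zfp36l2 fell, Zfp36l2 from 237 ± 7.91 to 10.4 ± 1.15 CPM. In KO cells Zfp36l2 was lower than in WT cells at 4 and 8 h of Pam3 and at all 4 times of R837, from -1.64 (edgeR adjusted p = 4.76e-07) at R837 8 h to -0.67 at Pam3 8 h. Zfp36l1 was lower at 4 h of Pam3 and 2, 4 and 6 h of R837, with log2 differences of -0.89 to -0.71. Zfp36 was higher at Pam3 6 h, by 0.36 ± 0.09 (edgeR adjusted p = 0.00576), and was not called in the other 8 conditions. At Pam3 4 h the median log2 difference of the 7 was -0.23, beside 0.00 over all genes, with 3 lower, where 6.43% of all genes were called. The remaining genotype calls of the 7 were of Tia1 (2) and Rc3h2 (1), and 1 of the 7 was higher in KO cells at Pam3 2 h and 1 at Pam3 8 h. These calls and those of Zfp36l2 (6), Zfp36l1 (4) and Zfp36 (1) kept their direction without the WT libraries that held Y-linked transcripts. The 2 still called were those of Zfp36l2 at 6 and 8 h of R837 (log2 -1.02 and -1.32, edgeR adjusted p = 0.048 and 0.00837).

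Among 10 other ligands of the family, 8 past the filter, 2 rose and 1 fell at R837 4 h in WT cells, where 53.8% of all genes were called (median log2 1.41, beside -0.04). Tnfsf4, which encodes OX40 ligand, rose from 0.0655 ± 0.073 to 2.89 ± 0.605 CPM (edgeR adjusted p = 6.85e-09), and Tnfsf12, which encodes TWEAK, fell from 51.7 ± 5.09 to 20.1 ± 2.68 CPM (edgeR adjusted p = 5.48e-10). Tnfsf12 was also lower in KO than in WT cells at Pam3 8 h and at 6 and 8 h of R837, at R837 8 h with a log2 difference of -0.96 ± 0.17 (edgeR adjusted p = 6.06e-05). Between genotypes 0 to 2 of these 8 were called in a condition, beside 0.882% to 23.9% of all genes. The remaining call was of Cd70, higher in KO cells at Pam3 8 h. Of the genes next to a member, C3, which encodes a complement component and lies 9792 bases beyond Tnfsf14, was higher in KO cells in 9 of 9 conditions, by 0.80 to 1.45, whereas Tnfsf14 was called in 1 condition, where it was lower. Nceh1, next to Tnfsf10, was lower in KO cells at 6 and 8 h of either agonist, with log2 differences of -1.02 to -0.51. The 16 calls of Tnfsf12, C3 and Nceh1 all kept their direction without the WT libraries that held Y-linked transcripts. Of them 2 of 3 held for Tnfsf12, 1 of 9 for C3 and 3 of 4 for Nceh1.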

How the data were processed

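Exon counts per gene, RPKM and exon width were deposited for each of 54 libraries; per the submitters' processing notes the reads were aligned with GSNAP to GRCm38, while versions and strand setting were not given in the sources used here. RPKM values, deposited by the authors, were used only to compare levels between genes. Per the labels' protocols, libraries were made with a TruSeq RNA kit and read as single ends. The deposited counts were tested with edgeR 4.0.16 (quasi-likelihood test, robust fit, TMM factors of 0.830 to 1.28) under R 4.3.3, with 1 coefficient per group over all 54 libraries, after filterByExpr (minimum count 10, minimum total 15), and Benjamini-Hochberg adjustment over 14970 genes at 0.05. Responses were compared between genotypes with F-tests over 4 contrasts. The procedure was tested on simulated data. Alternatives were DESeq2 1.42.0, limma 3.58.1 (voom), RLE size factors, no filter and a stricter filter, fits of only the groups compared, replicate blocks, each library left out, each replicate number of a genotype left out in all conditions, and, chosen after seeing the data, leaving out the 18 WT libraries with Y-linked transcripts and a block by Y-linked level among WT libraries. No replicate pair agreed within sampling noise (chi-square per degree of freedom of 6.62 or more). Replicate numbers did not pair the genotypes, as same-numbered libraries of a condition had deviations correlated at -0.319 to 0.242. Within a genotype the median correlation over conditions was 0.134 (KO) and 0.183 (WT) for the same number and -0.0821 and -0.0706 for different ones, so libraries may share a source across conditions, which comparisons between conditions do not model. P-values measure the spread between libraries. Depth was 20033154 to 45892308 counts per library, and intervals on ratios of summed counts (95%, exact) cover counting error only. All 8 members were named in each comparison, with the 3 genes of most similar pattern. The members and the lists were chosen with earlier results of these data known. Promoter windows are from RefSeq (GRCm38.p6), where 7 of 8 members matched, and 3′ untranslated regions from GENCODE.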

Additional observations from a re-analysis of the deposited data

Results flagged for a closer look

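Ligand responses differed between genotypes by a test of the difference itself. The Tnfsf14 response to Pam3 over 2 to 8 h differed between KO and WT cells with an edgeR adjusted p of 0.0155. The Tnfsf10 response to R837 differed with an edgeR adjusted p of 0.00117, and the genotype difference of Tnfsf10 differed between R837 and Pam3 with an edgeR adjusted p of 0.00143. None of the 3 was called without the 18 WT libraries that held Y-linked transcripts, where the edgeR adjusted p was 1, 0.113 and 0.0647. The first also missed the threshold in limma voom (adjusted p = 0.108), in the fit of only the groups compared (edgeR adjusted p = 0.0655) and when WT replicate 1, 2 or 3 was left out in all conditions (edgeR adjusted p = 0.0601, 0.12 and 0.153), and the second in limma voom (adjusted p = 0.0796).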

How the results depend on the processing

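No value of a ligand reversed among those called. Of 224 ligand values with a test, 97 were called and 53 of these held in every alternative run. The number of ligands called moved as follows, with the number as reported in parentheses. DESeq2 called 1 (0) for KO against WT in untreated cells, 2 (1) for R837 against Pam3 at 2 h and 2 (1) at 8 h. limma voom called 2 (1) for R837 against Pam3 at 2 h and 0 (1) for the genotype by Pam3 and the genotype by R837 tests. With no filter on low counts, KO against WT gave 1 (0) untreated, 2 (0) at Pam3 2 h and 4 (1), 4 (2) and 5 (3) at R837 2, 4 and 6 h, R837 against Pam3 gave 2 (1) at 2 and at 8 h, and the tests by Pam3, by R837 and by ligand gave 3, 4 and 3 (1 each). Fitting only the groups compared gave, for KO against WT, 1 (0) at Pam3 2 h, 2 (5) at Pam3 8 h and 2 (1) at R837 2 h, and 2 (4) for KO Pam3 8 h against 4 h. Either replicate block gave 2 (1) for R837 against Pam3 at 2 h and moved no other count by over 1.5 times. Without the 18 WT libraries with Y-linked transcripts, KO against WT gave 0 (3), 1 (3) and 2 (5) at Pam3 4, 6 and 8 h and 0 (1), 1 (2), 1 (3) and 2 (4) at R837 2, 4, 6 and 8 h, WT Pam3 8 h against untreated 4 (7), R837 against Pam3 0 (1) at 2 h and 2 (1) at 8 h, WT Pam3 8 h against 4 h 2 (4), and each of the 3 genotype by response tests 0 (1). Fewer samples remain in that fit, and fewer of all genes were called in each of these comparisons. The cause was tested neither for these moves nor for the others. The block by Y-linked level among WT libraries gave 2 (1) for R837 against Pam3 at 2 h and 2 (1) for the genotype by R837 test, and lost no ligand call. Leaving out 1 library at a time gave, for KO against WT, 2 to 3, 1 to 2 and 3 to 7 at Pam3 4, 6 and 8 h and 0, 1 to 4 and 3 to 4 at R837 2, 4 and 6 h. It gave 1 to 2, 3 to 5, 2 to 4 and 1 to 2 for R837 against Pam3 at 2, 4, 6 and 8 h, 4 to 6 for WT Pam3 4 h and 5 to 7 for Pam3 8 h against untreated, 4 for WT Pam3 and 2 to 6 for WT R837 at 8 h against 4 h, 3 to 5 for KO Pam3 and 3 for KO R837, and 0 to 2 and 1 to 2 for the tests by Pam3 and by R837. Leaving out a replicate number of a genotype in all conditions gave, for KO against WT, 1 to 4, 1 to 3 and 4 to 5 at Pam3 4, 6 and 8 h and 0 to 1, 1 to 4 and 2 to 3 at R837 2, 4 and 6 h. It gave 0 to 1, 3 to 4, 2 to 4 and 1 to 2 for R837 against Pam3, 4 to 5 and 5 to 7 for WT Pam3 4 and 8 h against untreated, 3 to 5, 3 to 4, 1 to 4 and 2 to 3 at 8 h against 4 h in WT Pam3, WT R837, KO Pam3 and KO R837, and 0 to 1 and 1 to 2 for the tests by Pam3 and by R837. Among single KO against WT calls, limma voom missed Tnfsf15 at Pam3 4 and 6 h and R837 2 h (adjusted p = 0.0764, 0.17 and 0.174) and Tnfsf13b at Pam3 8 h (0.0511). The fit of only the groups compared missed Tnfsf15 at Pam3 6 h (edgeR adjusted p = 0.115) and Tnfsf9 at Pam3 8 h (0.0702), and in WT cells Tnf for R837 against Pam3 at 4 h (0.0577). With a replicate number left out in all conditions Tnf missed at Pam3 4 h without WT replicate 2 (edgeR adjusted p = 0.0548) and at R837 6 h without KO replicate 2 or 3 (0.0762 and 0.0622). Low counts limit Lta, Ltb, Tnfsf13b and untreated Tnfsf15.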
